A study of Mus musculus with 36 samples.

Results

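The 36 genes described here take up glucose, run glycolysis, make and export lactate, and control the entry of pyruvate into mitochondria, together with the hypoxia regulator Hif1a and its hydroxylase Egln3. They were chosen by gene name, and all 36 names were found in the deposited count table, in 37 of its 54532 rows, because Aldoa has 2 rows. Expression was measured by RNA-seq in bone marrow-derived macrophages (BMDMs) of adult female C57BL/6 mice, grown for 7 days with MCSF. WT cells came from Bmal1 flox/flox littermates without Cre (n = 3 replicates), and KO cells from flox/flox mice that also carry LysM-Cre, a Cre recombinase made in myeloid cells (n = 6 replicates), so every group has the floxed alleles. Cells of each genotype were treated for 6 h with DMSO vehicle, with 100 µM CCM, with 100 nM LPS or with LPS and CCM, which gives 36 libraries in 8 groups. LPS, a lipopolysaccharide of bacterial outer membranes, activates macrophages through a pattern receptor, and CCM is a small molecule developed in the study to bind the PASB domain of BMAL1, the clock transcription factor encoded by Bmal1 (Arntl). The labels number the replicates but do not say that each number is a separate animal, so p-values measure the spread between these samples, which may be partly technical.

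Glycolysis splits glucose into pyruvate in the cytosol. Glucose enters through transporters of the Slc2a family, is trapped by a hexokinase and is committed to glycolysis by phosphofructokinase, which is activated by fructose 2,6-bisphosphate, the product of the Pfkfb enzymes. Pyruvate is either reduced to lactate by lactate dehydrogenase and exported by the monocarboxylate transporters of the Slc16a family, or oxidised by pyruvate dehydrogenase, which the Pdk kinases switch off. Macrophages exposed to LPS are known for a shift toward glycolysis and lactate, in which the transcription factor HIF-1α, encoded by Hif1a, has a known part. HIF-1 binds the core letters ACGTG or GCGTG, and BMAL1 with its partner CLOCK binds the E-box CACGTG.

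Gene counts summed to 13469262 to 28288923 per library. All 8 macrophage markers had counts in the data, and they summed to 11548 to 23180 CPM per library (counts scaled by the library total and edgeR's TMM factor). With vehicle the median sum was 17408 CPM in WT and 13022.5 CPM in KO. Lyz2, described below, is 1 of the 8. The 5 LPS response genes (Il1b, Il6, Tnf, Nos2 and Acod1) summed to 16.8 to 109 CPM without LPS and to 8807 to 14782 CPM with it, so the LPS labels and the libraries match. Arntl counts cover the whole gene and do not isolate the deleted exon, so they are no check of the KO label. They were 7.27 to 12.9 CPM over the WT libraries and 2.13 to 10.7 CPM over the KO libraries. Lyz2, the gene into which LysM-Cre is inserted, was at 10418 to 15053 CPM in WT and at 5913 to 10185 CPM in KO replicates 1, 3, 4, 5 and 6, but at 11047 to 14661 CPM in the 4 libraries labelled KO replicate 2, inside the WT range. KO replicate 6 stood apart in all 4 treatments, with TMM factors of 0.749 to 0.924. The part of either replicate's difference in the results was not tested, and counts of called genes in KO cells are given with and without replicates 2 and 6. Of other cell types, neutrophil and precursor markers summed to 425 to 1201 CPM, fibroblast markers to 293 to 1648 CPM, and T cell, B cell and erythroid markers to at most 33.4 CPM. In bulk RNA, fewer cells of a type and less RNA per cell cannot be told apart.

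Promoter sequences are shown for 6 of the genes, because the results below turn on these genes and the motifs of both transcription factors can be read in them. Each is the 250 bases before the 5′-most RefSeq start of the gene (GRCm38.p6), printed 5′ to 3′ on the strand of the gene, with capitals for the letters ACGTG or GCGTG on either strand (CACGT and CACGC when read from the other strand) and for CACGTG, a palindrome that contains ACGTG on both strands. The regions are chr2:27027999-27028248 (minus strand) for Slc2a6, chr6:82774455-82774704 (minus) for Hk2, chr7:46845554-46845803 (plus) for Ldha, chr11:120948817-120949066 (plus) for Slc16a3, chr12:73907617-73907866 (plus) for Hif1a and chr11:95041372-95041621 (minus) for Pdk2.
Slc2a6: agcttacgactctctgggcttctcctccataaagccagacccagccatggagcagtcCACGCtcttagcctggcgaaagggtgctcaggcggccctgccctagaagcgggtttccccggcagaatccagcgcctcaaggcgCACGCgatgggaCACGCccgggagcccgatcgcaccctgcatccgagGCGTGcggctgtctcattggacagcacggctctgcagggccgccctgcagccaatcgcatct
Hk2: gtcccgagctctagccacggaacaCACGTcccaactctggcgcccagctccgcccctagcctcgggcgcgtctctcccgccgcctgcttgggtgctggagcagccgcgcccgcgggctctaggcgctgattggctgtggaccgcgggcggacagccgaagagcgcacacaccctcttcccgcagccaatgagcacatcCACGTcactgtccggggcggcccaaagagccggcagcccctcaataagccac
Ldha: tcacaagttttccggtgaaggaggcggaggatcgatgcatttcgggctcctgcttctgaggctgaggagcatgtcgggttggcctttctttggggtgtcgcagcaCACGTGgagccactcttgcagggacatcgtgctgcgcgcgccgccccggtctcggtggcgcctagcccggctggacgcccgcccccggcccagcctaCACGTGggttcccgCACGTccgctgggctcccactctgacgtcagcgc
Slc16a3: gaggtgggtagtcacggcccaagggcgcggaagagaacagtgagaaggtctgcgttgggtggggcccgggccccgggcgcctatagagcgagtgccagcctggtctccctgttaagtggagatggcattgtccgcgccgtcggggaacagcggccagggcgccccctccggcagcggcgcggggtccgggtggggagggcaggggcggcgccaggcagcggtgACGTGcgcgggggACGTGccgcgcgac
Hif1a: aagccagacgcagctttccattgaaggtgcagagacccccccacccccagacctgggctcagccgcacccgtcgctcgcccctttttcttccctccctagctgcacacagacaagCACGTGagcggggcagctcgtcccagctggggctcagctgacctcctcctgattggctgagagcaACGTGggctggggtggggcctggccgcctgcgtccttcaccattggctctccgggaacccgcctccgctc
Pdk2: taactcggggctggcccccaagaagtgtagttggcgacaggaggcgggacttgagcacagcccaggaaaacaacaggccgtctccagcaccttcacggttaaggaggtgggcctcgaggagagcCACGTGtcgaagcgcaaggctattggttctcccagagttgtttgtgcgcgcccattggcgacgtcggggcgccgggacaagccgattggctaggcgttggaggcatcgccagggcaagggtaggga

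The Slc2a6 window has 4 such stretches, all of them GCGTG on one of the strands. The Ldha window has 3, and 2 of these are the E-box CACGTG, which also occurs once each in the windows of Hif1a and Pdk2. Over the 54 RefSeq windows of 35 matched genes (250 bases before to 50 after a start), ACGTG or GCGTG was found in 41, or 75.9%, beside 44.0% of all 32544 windows. CACGTG was found in 7 of the 54, and in 7.17% of all windows. Slc2a3 had no entry. Windows of one gene overlap, and a match is a string of letters, not a measured binding site. Both strings hold the letters CG, and the windows of all genes were not matched to these genes for base composition.

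Before stimulation the pathway was carried by a few abundant isozymes. In WT cells with vehicle, per kilobase of gene length, Pkm, the pyruvate kinase gene, was at 446 ± 21.0 CPM per kb (SD, n = 3), Aldoa (aldolase) at 349 ± 26.4, Pgam1 (phosphoglycerate mutase) at 205 ± 2.84, Ldha (lactate dehydrogenase A) at 185 ± 0.984 and Pgk1 (phosphoglycerate kinase) at 152 ± 6.41. At the other end, Pfkfb1 was at 0.519 ± 0.107 CPM per kb, Pdk4 at 0.960 ± 0.369 and Egln3 at 0.987 ± 0.257. Among hexokinases, Hk3 made up 84.5% ± 0.433 (SD, n = 3) of the summed level per kb, and among glucose transporters Slc2a1 made up 76.6% ± 1.94. Aldoa was 97.9% ± 0.137 of the aldolases, Eno1 95.5% ± 0.172 of the enolases and Ldha 92.2% ± 0.704 of the lactate dehydrogenases. Phosphofructokinase was shared between Pfkl (46.5% ± 2.17), Pfkp (35.7% ± 2.18) and Pfkm (17.9% ± 1.87). All such shares depend on the gene lengths of the count table, here 6675, 13401 and 3340 bases in that order. Before division by length, Pfkp had more CPM than Pfkl. Whether these lengths match the transcripts made was not tested, and the SDs do not cover it. The second Aldoa row (ENSMUSG00000114515) lay between 0 and 0.534 CPM in every library and did not reach the filter in the LPS comparisons.

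**Figure D1:**
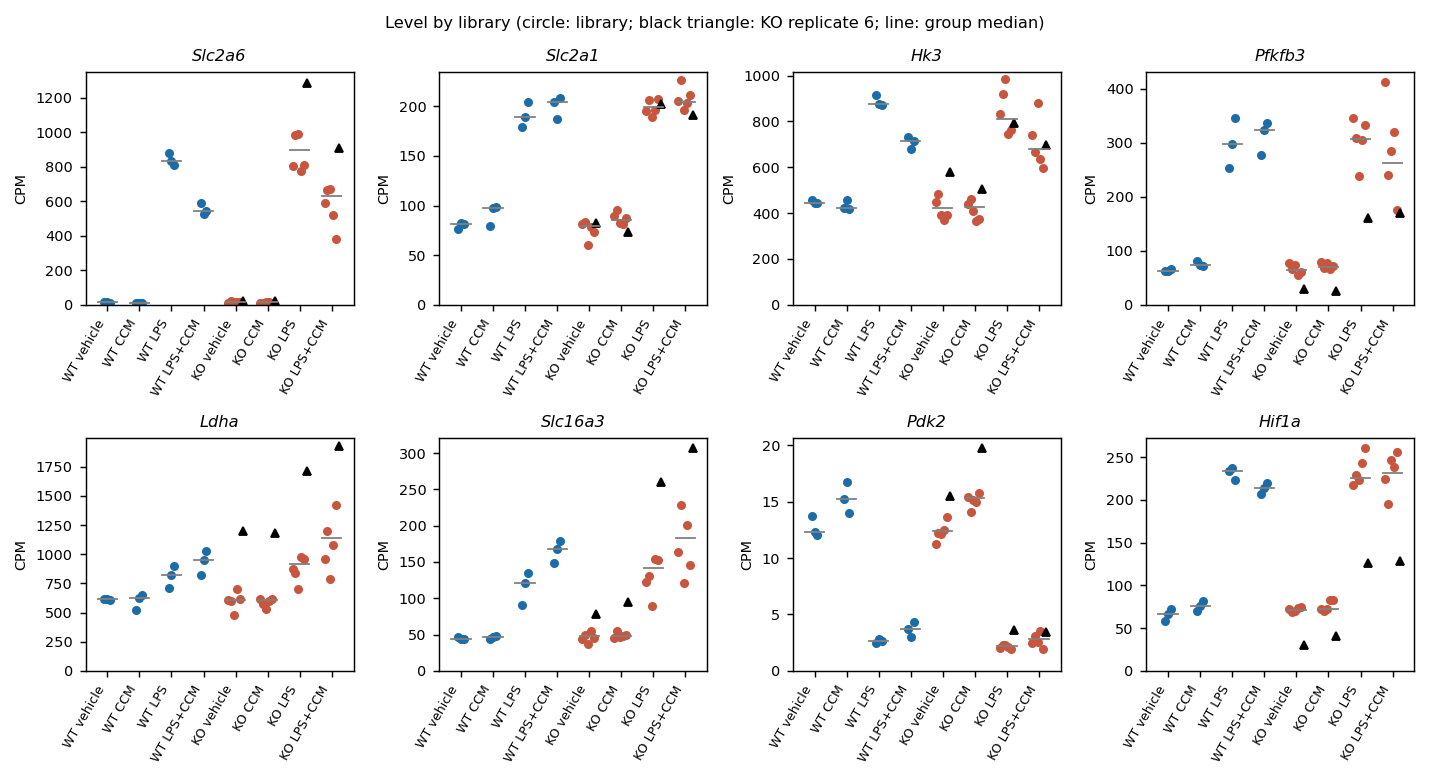
Level (CPM, linear axes from 0 that differ between panels) of Slc2a6, Slc2a1, Hk3, Pfkfb3, Ldha, Slc16a3, Pdk2 and Hif1a in each of the 8 groups, with a blue circle for each WT library, a red circle for each KO library, a black triangle for KO replicate 6 and a line at the group median. Slc2a6 lies at 13.2 to 17.7 CPM in WT vehicle libraries and at 810 to 878 CPM in WT LPS libraries, and Pdk2 at 12.0 to 13.7 and 2.48 to 2.85 CPM.

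LPS for 6 h changed most of these genes in WT macrophages, in both directions. Of 36 rows tested, 16 rose and 10 fell (edgeR quasi-likelihood test, Benjamini-Hochberg adjusted p of at most 0.05 over all genes tested, n = 3 against 3), where 30.6% of all 14501 genes tested rose and 32.4% fell. The share of members that changed, 26 of 36, is to be read against a background of 63% of all genes. The groups did not overlap for 27 members, beside 68.9% of all genes. The median log2 fold change of the members was 0.14, beside -0.05 over all genes. The glucose transporter genes Slc2a1 and Slc2a6, all 3 hexokinase genes, Pfkl and Pfkp, and the lactate exporter genes rose, while Pfkm, Aldoc, Eno3, Ldhb and 3 of the 4 Pdk genes fell. The split depends on scaling. With total counts alone the median of all genes lay at -0.465, and 11 members rose and 17 fell. With upper-quartile scaling the median lay at -0.234, and 12 rose and 13 fell. Aldoa, Eno1, Ldha, Pdk3 and Slc16a1 had changes below 0 with total counts alone. The summed dendritic cell markers also moved, from 2.72 to 3.97 CPM with vehicle to 9.49 to 11.5 CPM with LPS in WT. Markers of 3 other cell types moved down without overlap, neutrophil and precursor markers from 647 to 699 CPM to 514 to 562 CPM, T cell markers from 23.6 to 27.0 CPM to 11.8 to 17.0 CPM and B cell markers from 3.31 to 4.19 CPM to 2.03 to 3.07 CPM. The part of these markers in the results was not tested.

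Slc2a6, a lysosomal sugar transporter of the glucose transporter family, had the largest change. Its level was 17.4, 17.7 and 13.2 CPM in the WT vehicle libraries and 878, 836 and 810 CPM in the WT LPS libraries. All LPS libraries were far above all vehicle libraries. The log2 fold change was 5.72 ± 0.11 (SE), with an adjusted p of 6.87e-11. KO cells had 13.5 to 23.5 CPM with vehicle (median 17.8) and 777 to 1285 CPM with LPS (median 898), a log2 fold change of 5.68 ± 0.20 (adjusted p = 1.47e-10). Per kilobase, Slc2a6 went from 16.8% to 82.2% of the summed Slc2a level in WT cells.

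Slc2a1, which encodes the main glucose transporter of the plasma membrane, was at 76.2, 82.1 and 81.6 CPM with vehicle and at 179, 189 and 204 CPM with LPS in WT cells. The groups did not overlap, and the log2 fold change was 1.26 ± 0.07 (adjusted p = 1.02e-07). In KO cells Slc2a1 went from 60.1 to 83.0 CPM (median 79.8) to 189 to 207 CPM (median 199.3), a log2 fold change of 1.37 ± 0.10. Slc2a3, a neuronal-type high-affinity transporter, was at 14.2 ± 1.55 CPM with vehicle and 15.8 ± 3.72 CPM with LPS in WT (SD, n = 3), and did not pass the test in either genotype.

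All 3 hexokinases rose. Hk2, the inducible hexokinase that binds mitochondria, was at 66.9, 62.4 and 68.0 CPM in WT vehicle libraries and 126, 137 and 133 CPM in WT LPS libraries. Each LPS library was above each vehicle library, and the log2 fold change was 1.01 ± 0.06 (adjusted p = 3.09e-07). Hk2 in KO cells was at 44.3 to 82.2 CPM with vehicle (median 68.2) and 91.5 to 138 CPM with LPS (median 132), a log2 fold change of 0.92 ± 0.14. Hk3 rose by 0.99 ± 0.05 in WT and 0.90 ± 0.13 in KO, and Hk1, the constitutive form, by 0.69 ± 0.06 and 0.62 ± 0.09. Hk3 made up 85.7% ± 0.760 of the hexokinase level per kb in WT cells with LPS.

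The phosphofructokinase genes moved in different directions. The liver-type gene Pfkl was at 62.4, 59.1 and 63.1 CPM with vehicle and at 118, 143 and 150.2 CPM with LPS in WT cells (log2 fold change 1.16 ± 0.09, adjusted p = 1.66e-06), and the platelet-type gene Pfkp was at 89.3 to 101 CPM and 205 to 216 CPM (1.17 ± 0.06, adjusted p = 7.92e-08). Both groups of LPS libraries were above their vehicle libraries. The muscle-type gene Pfkm fell by 0.72 ± 0.15 on the log2 scale (adjusted p = 0.00162), from 10.7 to 13.7 CPM to 6.38 to 8.24 CPM, and its share of the family per kb went from 17.9% to 5.58%. Pfkm overlaps Senp1 and Pfkp overlaps Pitrm1 in the annotation, so their counts are less certain where the strand was not used.

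Among the enzymes that set fructose 2,6-bisphosphate, Pfkfb3, whose product strongly favours its synthesis, rose, and Pfkfb2 and Pfkfb4 fell. Pfkfb3 was at 62.6, 63.1 and 66.4 CPM with vehicle and at 254, 298 and 346 CPM with LPS in WT cells. Every LPS library was above every vehicle library, with a log2 fold change of 2.23 ± 0.10 (adjusted p = 3.56e-08). In KO cells Pfkfb3 was at 28.9 to 78.0 CPM with vehicle (median 63.9) and at 161 to 346 CPM with LPS (median 307), a log2 fold change of 2.20 ± 0.24, and KO replicate 6 was the lowest library of each group. Pfkfb4 fell by 0.67 ± 0.08 on the log2 scale in WT, and Pfkfb2 fell by 1.32 ± 0.18. Pfkfb3 went from 43.4% to 85.1% of the family level per kb in WT cells and Pfkfb4 from 48.7% to 13.1%. Pfkfb1 was at 1.08 to 2.56 CPM in these libraries and did not pass the test.

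Among the genes of the later steps of glycolysis, Pgk1, Aldoa and Eno1 rose and several minor isozymes fell in WT. Pgk1, which makes the first ATP of the lower pathway, was at 348, 351 and 325 CPM with vehicle and 621, 681 and 640.5 CPM with LPS in WT, a log2 fold change of 0.93 ± 0.06 (adjusted p = 3.67e-07). In KO it was at 303 to 412 CPM (median 334) and 639 to 782 CPM (median 690.0), with an adjusted p of 3.76e-06. The LPS libraries did not overlap the vehicle libraries in either genotype. Aldoa rose by 0.29 ± 0.06 and Eno1 by 0.28 ± 0.07 in WT, while Gpi1 (phosphoglucose isomerase, -0.14 ± 0.06), Tpi1 (triosephosphate isomerase, 0.11 ± 0.09), Pgam1 (372 to 382 against 345 to 406 CPM) and Pkm (-0.13 ± 0.06) did not pass the test. The minor isozymes fell in WT, Aldoc by 0.88 ± 0.09, Eno3 by 1.05 ± 0.21 and the mutase Bpgm by 0.68 ± 0.12 on the log2 scale. Eno2 had 14.6 to 16.1 CPM with vehicle and 16.1 to 17.2 CPM with LPS and was not called. Tpi1 overlaps Spsb2, which reached 99.4 CPM.

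Lactate genes moved toward the A-type dehydrogenase and toward export. Ldha was at 616, 615 and 609.9 CPM with vehicle and at 708, 825 and 899.8 CPM with LPS in WT. The groups did not overlap, and the log2 fold change was 0.41 ± 0.08 (adjusted p = 0.00159). Ldhb, whose enzyme favours the return of lactate to pyruvate, was at 22.3 to 27.1 CPM and 8.56 to 9.71 CPM, and fell by 1.40 ± 0.10 on the log2 scale (adjusted p = 1.22e-06). Ldha thereby went from 92.2% to 97.6% of the summed level per kb.

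Slc16a3, which encodes the lactate exporter MCT4, was at 46.6, 44.2 and 44.2 CPM with vehicle and at 90.8, 121 and 134 CPM with LPS in WT. All 3 LPS libraries were above the vehicle libraries, and the log2 fold change was 1.37 ± 0.12 (adjusted p = 5.60e-06). KO cells had 36.9 to 78.6 CPM with vehicle (median 47.5) and 89.9 to 260.1 CPM with LPS (median 142), a log2 fold change of 1.56 ± 0.26. Slc16a1, the gene of the more widely expressed transporter MCT1, rose by 0.38 ± 0.13 in WT (adjusted p = 0.0283), where its groups overlapped (17.7 to 20.1 against 19.5 to 28.8 CPM), and by 0.67 ± 0.13 in KO. The WT call was lost without WT LPS replicate 2 or 3 or WT vehicle replicate 1 or 2 (0.0507 to 0.130).

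The kinases that switch off pyruvate dehydrogenase changed in composition. Pdk2 was at 13.7, 12.3 and 12.0 CPM with vehicle and at 2.48, 2.85 and 2.61 CPM with LPS in WT, a fall of 2.25 ± 0.14 on the log2 scale (adjusted p = 2.64e-07). The KO libraries were at 11.3 to 15.5 CPM with vehicle (median 12.4) and 1.90 to 3.58 CPM with LPS (median 2.23), and Pdk2 fell by 2.45 ± 0.17. In both genotypes each LPS library was below each vehicle library. Pdk4, the starvation-induced kinase, fell by 1.64 ± 0.37 in WT and by 1.64 ± 0.43 in KO at levels of 0.511 to 6.95 CPM, and Pdk1, a HIF-1 target, fell by 0.55 ± 0.09 in WT and by 0.37 ± 0.12 in KO. The KO call of Pdk1 (adjusted p = 0.0246) was lost without KO replicate 1, 2, 3 or 5 (0.0631 to 0.0901) and with no filter on low counts (0.0586). Pdk3 alone rose, by 0.41 ± 0.10 in WT and 0.61 ± 0.12 in KO, and its share of the Pdk level per kb went from 31.5% to 56.6% in WT. Pdha1, the catalytic subunit gene of pyruvate dehydrogenase, was at 48.6 to 54.6 CPM with vehicle and 52.6 to 59.7 CPM with LPS in WT and was not called.

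Hif1a was at 58.4, 66.4 and 71.9 CPM with vehicle and at 234, 237 and 223 CPM with LPS in WT. The groups were far apart, with a log2 fold change of 1.82 ± 0.08 (adjusted p = 2.51e-08). In KO cells Hif1a was at 30.5 to 74.5 CPM (median 70.6) and 126 to 261 CPM (median 226), with a log2 fold change of 1.73 ± 0.22 and KO replicate 6 lowest in each group. Egln3, which encodes a prolyl hydroxylase that marks HIF-1α for degradation, stayed at 1.84 to 3.04 CPM with vehicle and 2.01 to 2.98 CPM with LPS in WT. In KO it was at 1.05 to 3.36 and 2.26 to 5.54 CPM, and its log2 fold change of 0.69 ± 0.28 missed the threshold (adjusted p = 0.0603). It passed with the replicate block (0.0299), DESeq2 (0.0211), RLE scaling (0.0444) and 1 fit of all libraries (0.0247), and without KO replicate 3 (0.0450).

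**Figure D2:**
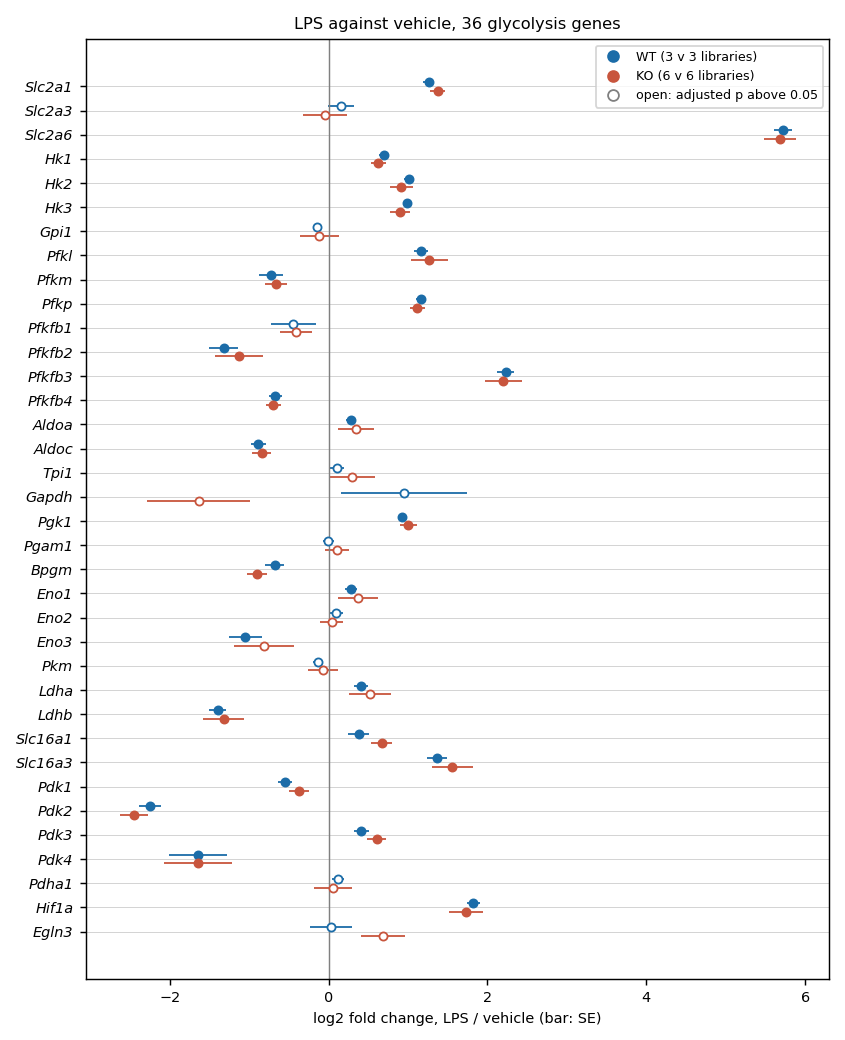
Log2 fold change of each gene for LPS against vehicle in WT (n = 3 against 3) and KO (n = 6 against 6) macrophages, with the standard error as bars, and filled points for adjusted p of at most 0.05. Slc2a6 lies at 5.72 and 5.68, Pfkfb3 at 2.23 and 2.20, and Pdk2 at -2.25 and -2.45.

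In KO macrophages 13 of 36 rows rose and 9 fell with LPS, where 22.4% of all 13648 genes tested rose and 24.7% fell, 47.1% in all (n = 6 against 6). All 22 were also called, in the same direction, in WT. Aldoa, Eno1, Eno3 and Ldha were called in WT and missed the threshold in KO. Ldha had a log2 fold change of 0.52 ± 0.26 in KO (adjusted p = 0.123), at 479 to 1197 CPM with vehicle (median 610.1) and 699 to 1709 CPM with LPS (median 913). Without KO replicate 6, 17 members rose and 10 fell (beside 32.6% and 36.9% of all genes, 69.4% in all), and Aldoa, Eno1, Eno3, Ldha and Tpi1 were among them. Without the libraries labelled KO replicate 2 the count was 21 (beside 40% of all genes, 19.4% higher and 20.6% lower). Same-numbered KO libraries deviated together, with correlations from 0.323 upward beside a median of 0.244 for different numbers. A fit with replicate number as a block gave 18 higher and 12 lower beside 34.1% and 37.5% of all genes (71.6% in all). Ldha had an adjusted p of 2.08e-07 in that fit. With total counts alone, 10 rose and 14 fell in KO and the median of all genes lay at -0.438. With upper-quartile scaling 13 rose and 12 fell, around a median of -0.245. For 19 of the 22 called members the groups did not overlap, where the same held for 64.7% of the 6433 genes called and for 30.6% of all genes tested. The exceptions were Pdk1, Pdk4 and Pfkfb2.

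KO replicate 6 differed from the other KO libraries in a way that touched many of these genes. Of the 36 rows with a mean of at least 1 CPM, it was the highest of the 6 libraries in all 4 treatments for 13 and the lowest for 6, where 25.5% of 12572 genes of that level were highest and 28.1% lowest. Replicates 1 to 5 were each highest in all 4 treatments for at most 1 member. The 13 were Aldoa, Bpgm, Eno1, Eno3, Gapdh, Gpi1, Ldha, Ldhb, Pfkl, Pkm, Slc16a3, Slc2a6 and Tpi1, and the 6 were Hif1a, Hk2, Pdha1, Pfkfb2, Pfkfb3 and Pgam1. Gpi1, for example, was at 701 CPM in replicate 6 with vehicle and at 343 ± 13.8 CPM in replicates 1 to 5 (SD, n = 5).

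**Figure D3:**
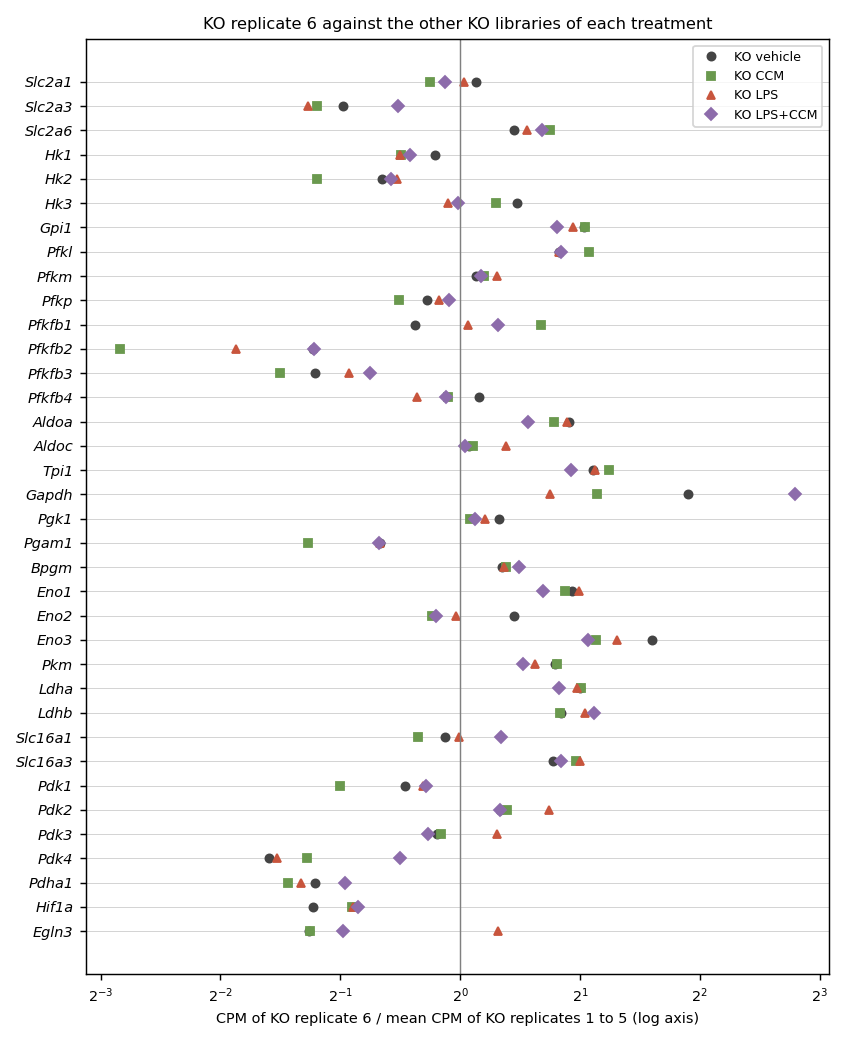
Level of each gene in KO replicate 6 divided by the mean of KO replicates 1 to 5, by treatment (marker shape), on a log axis with a line at equal level. Gpi1 lies at 2.04, 2.06, 1.92 and 1.75 with vehicle, CCM, LPS and both, whereas Hif1a and Pdha1 lie below 1 in all 4 treatments.

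Gapdh, the glyceraldehyde 3-phosphate dehydrogenase gene that is often used as a reference, had counts that varied widely within groups, and the part of reads shared with its copies was not tested. It has many near-identical processed pseudogenes in the mouse genome, and reads that match several places may be left out of such counts; how the authors treated them is not given in the sources used here. The gene (ENSMUSG00000057666, mm10, chr6:125161715-125166467, minus strand) was at 2.08 to 20.4 CPM per kb over the 8 group means, while its pathway neighbours Pgk1 and Tpi1 were at 289 and 104 CPM per kb in WT cells with LPS. It had 101 to 326 counts (5.28 to 19.2 CPM) in 28 libraries and 732 to 5070 counts (30.7 to 294 CPM) in the other 8. The 8 were WT vehicle 1, WT LPS 2 and 3, KO vehicle 1, 2 and 6, and KO LPS+CCM 5 and 6. They belong to 4 groups, each of which also has libraries of the lower kind. The pseudogene rows Gapdh-ps14 and Gapdh-ps15 held 24 and 30 counts over all libraries. With LPS, Gapdh was not called in WT (log2 fold change 0.95 ± 0.80) or KO (-1.64 ± 0.65, adjusted p = 0.0538). These calls depend on the processing and on single libraries. In WT Gapdh was called higher without WT vehicle replicate 1 (2.79, adjusted p = 0.00355) and with no filter on low counts. In KO it was called lower with DESeq2 (adjusted p = 0.0171), total counts alone (0.0154), upper-quartile scaling (0.0326) and the replicate block (0.0463, at a log2 fold change of -1.01). Gapdh also overlaps Iffo1, which reached 43.4 CPM. Other members had copies with few counts beside their own: Eno1b held 11784 against 612665 for Eno1, Pgam1-ps2 2495 against 277592, Pgk1-rs7 2140 against 386958, Tpi-rs11 1946 against 252702 and Ldha-ps2 1052 against 610361.

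**Figure D4:**
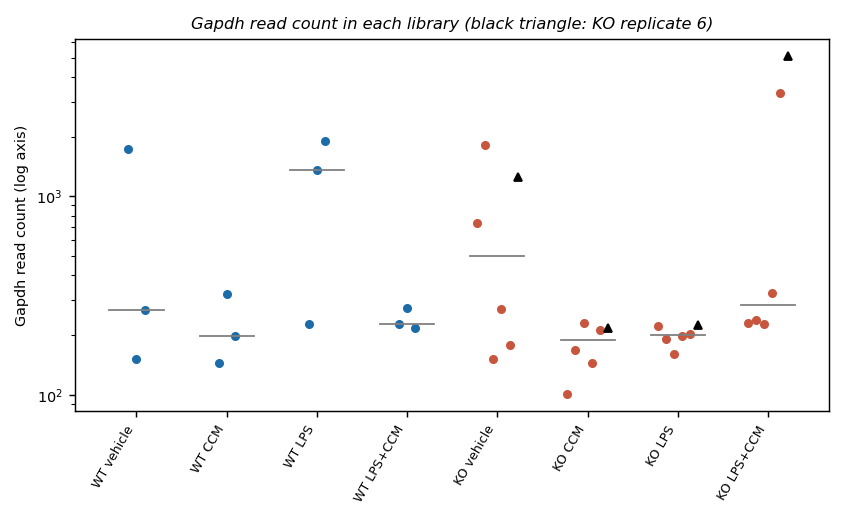
Gapdh read count (log axis) in each of the 36 libraries by group, with blue for WT, red for KO, a black triangle for KO replicate 6 and a line at the group median. The 8 libraries from 732 to 5070 counts lie apart from the 28 libraries from 101 to 326 counts, and both kinds occur within WT vehicle, WT LPS, KO vehicle and KO LPS+CCM.

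CCM without LPS gave differences in WT macrophages that did not pass the main test for any of these genes. With edgeR 0 of 37 rows were called, where 0.0499% of all 14024 genes tested were higher and 0.00713% lower, 0.057% in all. At an unadjusted p under 0.05 there were 9 members, beside 1404 of the 14024 genes, and DESeq2 called 1 (Pdk1). Pdk1 was at 43.7, 47.3 and 40.5 CPM with vehicle and at 35.9, 34.6 and 34.3 CPM with CCM. The CCM libraries were below the vehicle libraries, with a log2 difference of -0.34 ± 0.07 (adjusted p = 0.122). The largest differences at p under 0.05 were those of Slc2a3 (-0.48 ± 0.12) and Slc2a6 (-0.42 ± 0.12), and the members with higher values were Pdk2 (0.26 ± 0.10), Pfkfb3 (0.22 ± 0.06) and Pfkl (0.20 ± 0.06). Slc2a6 was at 12.7, 12.0 and 11.6 CPM with CCM, under each vehicle library. The groups did not overlap for 10 members, none of them called, where the groups did not overlap for 16.4% of all genes tested.

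Of the genes followed in every comparison, Slc2a1 was at 79.6 to 98.1 CPM with CCM (log2 difference 0.18 ± 0.09), Hk2 at 68.7 to 86.0 (0.18 ± 0.09), Hif1a at 69.7 to 81.4 (0.19 ± 0.09), Slc16a3 at 43.9 to 47.4 (0.02 ± 0.06) and Ldha at 525 to 652 CPM (-0.05 ± 0.08), and none passed the test in WT. Gapdh was at 63.8, 6.66 and 7.94 CPM with vehicle and at 6.65, 14.9 and 8.11 CPM with CCM. Its log2 difference of -1.41 ± 0.77 was not called (adjusted p = 0.581), and WT vehicle 1 is among the libraries with high Gapdh.

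In KO macrophages CCM without LPS also gave 0 called members of 36 with edgeR and 0 with DESeq2, and 0 of the 13799 genes tested were called, which is 0%. There were 3 members at an unadjusted p under 0.05, Gapdh, Aldoc and Pdk2, beside 2.41% of all genes. Gapdh had a log2 difference of -2.17 ± 0.68, at 7.09 to 100.4 CPM with vehicle and 5.28 to 15.8 CPM with CCM. KO vehicle 1, 2 and 6 are among the libraries with high Gapdh. Pdk2 was at 11.3 to 15.5 CPM with vehicle (median 12.4) and 14.1 to 19.8 CPM with CCM (median 15.3), a log2 difference of 0.31 ± 0.12, beside 0.26 ± 0.10 in WT. The other genes followed in every comparison were at 73.4 to 95.6 CPM with CCM for Slc2a1, 34.6 to 88.1 CPM for Hk2, 25.6 to 79.9 CPM for Pfkfb3, 528 to 1179 CPM for Ldha, 45.7 to 94.9 CPM for Slc16a3 and 40.6 to 83.0 CPM for Hif1a, and each range overlapped that of vehicle. The groups overlapped for each of the 36 members, where they did not for 0.377% of all genes. Leaving out replicate 2 or replicate 6 left the count at 0. Same-numbered libraries deviated together in this comparison, but the lowest of their correlations (0.380) was little above the median of differently numbered libraries (0.314). In a fit with the number as a block, 4 members were called beside 3.11% of all genes (1.41% higher and 1.7% lower), with Pdk2 and Pfkl higher and Aldoc and Pfkp lower with CCM.

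CCM given with LPS was compared with LPS alone. In WT macrophages 7 of 36 rows were higher and 5 lower with CCM added (n = 3 against 3), where 4.15% of all 13579 genes tested were higher and 7.78% lower. The median log2 difference was 0.12 over the members and 0.01 over all genes. The genes of common glycolytic steps (Gpi1, Pfkl, Tpi1, Pgam1, Pkm), of lactate export (Slc16a3) and Pfkfb4 were higher, and Slc2a6, Hk1, Hk3, Pfkp and Gapdh were lower. This comparison shares its LPS libraries with that of LPS against vehicle. The summed LPS response genes were at 12147 to 13931 CPM with LPS and at 9029 to 10595 CPM with LPS and CCM in WT, and the dendritic cell markers at 9.49 to 11.5 CPM and 6.43 to 8.64 CPM. Their part in the result was not tested. With total counts alone 12 members were higher and 5 lower, around a median of 0.094 over all genes.

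Slc2a6 had the smallest p of the members. It was at 878, 836 and 810 CPM with LPS and at 588, 525 and 543 CPM with LPS and CCM in WT. The 3 libraries with CCM were below the 3 without, and still far above the 13.2 to 17.7 CPM of vehicle. The log2 difference was -0.61 ± 0.05 (adjusted p = 8.83e-05). KO cells had 777 to 1285 CPM with LPS (median 898) and 382 to 910 CPM with LPS and CCM (median 629), with the same log2 difference of -0.61 but an SE of 0.20 (adjusted p = 0.363).

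Among the enzymes at the entry of the pathway, Hk3 was at 915, 876 and 873 CPM with LPS and 733, 681 and 715 CPM with LPS and CCM in WT (log2 difference -0.32 ± 0.04, adjusted p = 0.00116). Hk1 was at 149 to 159 CPM and 130.3 to 133 CPM (-0.23 ± 0.05, adjusted p = 0.00855). Pfkp was at 205 to 216 CPM and 173 to 185 CPM (-0.24 ± 0.05, adjusted p = 0.00682). For each of the 3 genes all libraries with CCM were below all without. Hk2, at 126 to 137 CPM and 121 to 138 CPM, had a log2 difference of -0.01 ± 0.06 and was not called. Pfkl, whose protein does the same step as that of Pfkp, had the opposite direction. It was at 118, 143 and 150.2 CPM with LPS and at 173, 174 and 196 CPM with LPS and CCM, without overlap (0.40 ± 0.09, adjusted p = 0.0129). Pfkl thus went from 53.2% ± 2.63 to 63.6% ± 2.86 of the family level per kb and Pfkp from 41.2% ± 2.20 to 31.4% ± 1.70 (SD, n = 3).

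Slc16a3 was at 90.8, 121 and 134 CPM with LPS and at 148, 167 and 178 CPM with LPS and CCM in WT. The libraries with CCM were above those without, and the log2 difference was 0.51 ± 0.12 (adjusted p = 0.0212). Tpi1 was at 247, 296 and 316 CPM and at 354, 395 and 398 CPM (0.42 ± 0.08, adjusted p = 0.00922). Pfkfb4 was at 31.7, 28.8 and 27.0 CPM and at 38.4, 36.1 and 37.6 CPM (0.36 ± 0.07, adjusted p = 0.00879). For both genes the groups did not overlap. Gpi1 (0.23 ± 0.05), Pkm (0.21 ± 0.05) and Pgam1 (0.21 ± 0.06, adjusted p = 0.0463) were higher by smaller amounts, also without overlap. Several of these calls ended when 1 library was left out. The call of Pgam1 was lost in 5 of 6 such fits (all but that without WT LPS replicate 3, adjusted p = 0.0543 to 0.146) and with RLE scaling. Slc16a3 was not called without WT LPS+CCM replicate 2 or 3 or WT LPS replicate 2 (0.0582 to 0.0919), although its log2 difference stayed at 0.45 to 0.54. With adjusted p-values of 0.0502 to 0.0546, Hk1 missed the threshold without WT LPS replicate 2, Pfkl without WT LPS+CCM replicate 3 and Tpi1 without WT LPS+CCM replicate 2.

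Gapdh was lower by 1.95 ± 0.47 on the log2 scale (adjusted p = 0.0229), at 13.4, 58.8 and 76.5 CPM with LPS and 13.5, 14.3 and 11.2 CPM with LPS and CCM. The groups overlapped, and the call rests on WT LPS replicates 2 and 3, which are among the 8 libraries with high Gapdh. Without WT LPS replicate 2 or 3, or WT LPS+CCM replicate 2 or 3, its adjusted p was 0.0690 to 0.0934 and its log2 difference -2.03 to -1.50.

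The members followed in every comparison that were not called in WT were Slc2a1 (0.07 ± 0.06), Pfkfb3 (0.06 ± 0.10), Hif1a (-0.12 ± 0.05) and Ldha (0.20 ± 0.09, adjusted p = 0.207). Ldha was at 819, 953 and 1027 CPM with LPS and CCM, and Hif1a at 207, 214 and 219 CPM. The Hif1a libraries with CCM were below the 223 to 237 CPM of LPS alone, and those of Ldha overlapped with LPS alone. In all, the groups did not overlap for 19 members, of which 11 were called, where the groups did not overlap for 30.5% of all genes tested and 11.9% were called in either direction. Same-numbered WT libraries deviated together here. A fit with the number as a block called 21 of 36, 13 higher and 8 lower, where it called 10.4% of all genes higher and 13.3% lower, 23.7% in all. They included the 12 and also Aldoa, Eno1, Ldha, Pdk1, Pgk1 and Slc16a1 higher and Hif1a, Pdk3 and Slc2a3 lower. In 1 fit of all 36 libraries, which shares the spread of the KO libraries with WT, 0 members were called.

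**Figure D5:**
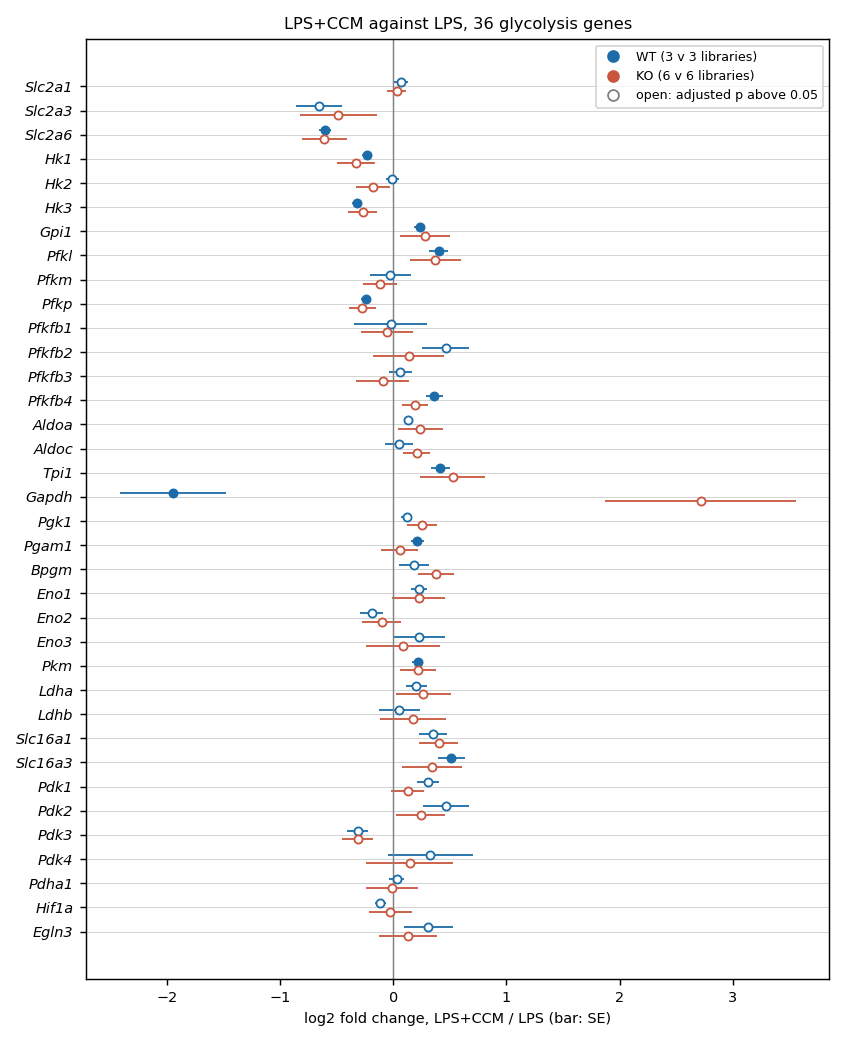
Log2 difference of each gene between CCM with LPS and LPS alone in WT (n = 3 against 3) and KO (n = 6 against 6) macrophages, with the standard error as bars, and filled points for adjusted p of at most 0.05. The 12 called genes are all in WT, and Slc2a6 lies at -0.61 in both genotypes.

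In KO macrophages CCM with LPS gave 0 called members of 36 with edgeR and 0 with DESeq2, where 0.00747% of all 13386 genes tested were higher and 0.105% lower, 0.112% in all. There were 7 members at an unadjusted p under 0.05, beside 7.99% of all genes, and the smallest adjusted p was 0.318. The KO log2 differences, beside those of WT given above, were -0.27 ± 0.13 for Hk3, -0.33 ± 0.17 for Hk1, -0.27 ± 0.12 for Pfkp, 0.37 ± 0.22 for Pfkl, 0.34 ± 0.27 for Slc16a3, 0.52 ± 0.29 for Tpi1, 0.19 ± 0.12 for Pfkfb4, 0.28 ± 0.22 for Gpi1, 0.22 ± 0.16 for Pkm and 0.05 ± 0.16 for Pgam1. The standard errors were larger than in WT although there were more libraries. In the KO LPS+CCM group, replicate 5 was lowest for 10 members, Slc2a6 among them, replicate 3 for 11 and replicate 6 for 8. Of 12572 genes with a mean of at least 1 CPM, these replicates were lowest for 16.9%, 18.4% and 35.7% in that order. The groups overlapped for each of the 36, where they did not for 1.31% of all genes. In a fit with replicate number as a block, 5 members were called beside 5.8% of all genes (1.67% higher and 4.14% lower). Pfkl, Slc16a1 and Tpi1 were higher there and Hk3 and Slc2a6 lower. Without KO replicate 6 the block kept only Slc2a6 of these. Of the genes followed throughout, Slc2a1 was at 191 to 226 CPM with LPS and CCM, Hk2 at 79.1 to 135 CPM, Pfkfb3 at 170.2 to 411 CPM, Ldha at 790.4 to 1925 CPM, Slc16a3 at 121 to 307 CPM and Hif1a at 128 to 256 CPM. Without replicate 2 or replicate 6 the count stayed at 0, and without replicates 5 and 6 Slc2a6 alone was called, as lower. Gapdh had a log2 difference of 2.72 ± 0.84 (adjusted p = 0.318), opposite to WT, with replicates 5 and 6 at 162 and 294 CPM and the other 4 libraries at 12.3 to 12.6 CPM.

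Whether CCM acts differently with and without LPS was tested as an interaction. In WT 2 of 37 rows passed, where 0.468% of all 14747 genes tested had a positive interaction and 1.62% a negative one, 2.09% in all. The change of Pdk1 with CCM alone was -0.34 ± 0.07 against vehicle and was not called (adjusted p = 0.122). Pdk1 was at 32.0, 41.3 and 36.9 CPM with LPS and CCM and at 26.4, 30.2 and 32.4 CPM with LPS. These groups overlapped, and this change was not called either (0.31 ± 0.10, adjusted p = 0.0778). The difference between the changes was 0.63 ± 0.13 (adjusted p = 0.0258). For Tpi1 the change without LPS was -0.12 ± 0.07 and was not called (adjusted p = 0.583). With LPS it was 0.42 ± 0.08 and was called, and the difference was 0.53 ± 0.12 (adjusted p = 0.0388). Without WT replicate 2 or without WT replicate 3 no member was called, and without WT replicate 1 Tpi1 was not (adjusted p = 0.0748 to 0.357 for Tpi1 over these 3 fits and 0.129 to 0.423 for Pdk1 over the 2 in which it was lost). In KO 0 of 36 rows passed with edgeR, where 0.00685% of 14588 genes did, 5 members had an unadjusted p under 0.05 (beside 3.67% of all genes), and DESeq2 called 1 (Gapdh). Without KO replicate 2 or 6 the count stayed at 0.

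KO and WT macrophages were compared directly in vehicle and in LPS, and their responses were compared as interactions. With vehicle 0 of 37 rows were called (0% of 14385 genes), 0 had an unadjusted p under 0.05 and DESeq2 called 0. With LPS 0 of 36 were called (0% of 13794 genes), 1 had an unadjusted p under 0.05 (Gapdh) and DESeq2 called 0. Apart from Gapdh and the second Aldoa row, the log2 differences of KO from WT ran from -0.45 (Pfkfb1) to 0.35 (Ldhb) with vehicle and from -0.41 (Pfkfb1) to 0.47 (Egln3) with LPS, with standard errors of 0.087 to 0.516 over both comparisons. The response to LPS differed by -0.20 (Bpgm) to 0.68 (Egln3) between genotypes, and that to CCM under LPS by -0.30 (Pfkfb2) to 0.21 (Bpgm). Both interactions had 0 called members (0% of 15093 and of 14546 genes), with 0 and 1 members (Gapdh) at an unadjusted p under 0.05 and 0 with DESeq2. For Slc2a6 the genotype difference in the response to CCM under LPS was 0.01 ± 0.29, and for Slc16a3 it was -0.16 ± 0.41. Without KO replicate 2 or 6 these counts stayed at 0.

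Other genes of glucose metabolism were read from 5 lists, and values are log2 fold changes with their SE. Their counts stand beside 30.6% of all genes higher and 32.4% lower for LPS in WT, and 22.4% and 24.7% in KO. In WT cells with LPS, 3 of 8 pentose phosphate genes rose (Rpe 0.99 ± 0.07, Pgd 0.78 ± 0.09, Rpia 0.43 ± 0.11) and 2 fell (Pgls by 0.54 ± 0.10, Taldo1 by 0.42 ± 0.10), around a list median of 0.06. Of 9 genes of pyruvate import and the pyruvate dehydrogenase complex, Dld, its E3 subunit gene, rose by 0.81 ± 0.05, and the phosphatase genes Pdp1 and Pdpr fell by 1.23 ± 0.08 and 1.07 ± 0.14, with the carrier gene Mpc2 falling by 0.50 ± 0.10. Among 10 glycogen genes, 3 rose (Gbe1 1.24 ± 0.09, Gys1 0.53 ± 0.11, Pgm2 0.32 ± 0.07) and 5 fell, among them the phosphorylase genes Pygl (by 1.30 ± 0.08) and Pygb (by 0.69 ± 0.06). In KO cells 3 pentose phosphate genes rose and 0 fell, 2 rose and 1 fell in the dehydrogenase list, and 2 rose and 4 fell in the glycogen list. Without KO replicate 2 these counts were 2 and 0, 1 and 1, and 2 and 4, where 19.4% of all genes rose and 20.6% fell. Without KO replicate 6 they were 4 and 3, 4 and 3, and 3 and 5, where 32.6% of all genes rose and 36.9% fell.

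The list of other sugar and lactate genes had 3 of 14 higher and 8 lower with LPS in WT, around a median of -0.65. Gpd2, the mitochondrial glycerol 3-phosphate dehydrogenase gene, rose by 2.98 ± 0.10, and its cytosolic counterpart Gpd1 fell by 3.69 ± 0.37. The transporter genes Slc2a8 and Slc16a7 fell by 1.97 ± 0.11 and 1.81 ± 0.11, while Minpp1 rose by 0.69 ± 0.06 and Tigar by 0.42 ± 0.10. In KO cells 3 rose and 7 fell, 3 and 5 without KO replicate 2 and 3 and 9 without KO replicate 6. Genes of the hypoxia pathway moved both ways, 11 higher and 9 lower of 22 in WT and 5 higher and 6 lower in KO. The KO counts were 5 and 5 without replicate 2 and 7 and 9 without replicate 6. For both lists, the counts without a replicate stand beside the shares of all genes given above for the same fits. Ak4 (3.28 ± 0.17), P4ha1 (1.33 ± 0.06) and Bnip3 (0.94 ± 0.14) rose in WT, whereas Mxi1 fell by 2.33 ± 0.09, Epas1, which encodes HIF-2α, by 1.74 ± 0.14 and Bnip3l by 1.43 ± 0.08.

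With CCM under LPS in WT, where 4.15% of all genes were higher and 7.78% lower, 4 of 10 glycogen genes were higher and 0 lower, among them Gys1 at 0.48 ± 0.12 and Pygl at 0.39 ± 0.08. In the pentose phosphate list H6pd was higher (0.50 ± 0.05, adjusted p = 0.000222) and Rpe lower (-0.19 ± 0.05) of 8 genes, and Dld (-0.19 ± 0.05) was the 1 called gene of 9 in the dehydrogenase list. In the hypoxia list 4 of 22 were higher, among them Bnip3 (0.58 ± 0.12), Ak4 (0.44 ± 0.10) and Egln1 (0.35 ± 0.09), and Ddit4 was lower (-0.62 ± 0.16). Pgm2l1 (0.42 ± 0.11) and Adpgk (0.22 ± 0.06) were higher and Minpp1 (-0.20 ± 0.05) lower of 13 other sugar and lactate genes. No gene of the 5 lists was called in the remaining 9 comparisons with edgeR.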

How the data were processed

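RNA was measured in 36 libraries of 8 groups. According to the submitters' processing notes, the authors trimmed reads with fastp, aligned them to mm10 with HISAT2 2.0.5 and counted them per gene with featureCounts 1.5.0-p3, and the deposited table holds these raw gene counts, not normalized. The treatment of multi-mapping reads, the strand setting and the annotation release are not given in the sources used here, which bears on genes with near-identical copies or overlaps. Groups were taken from the labels. The members and gene lists were chosen with earlier results of these data known. The libraries of the groups compared, and no others, entered each fit, over all genes that passed filterByExpr, with TMM factors and the quasi-likelihood test of edgeR 4.0.16 (R 4.3.3), and a gene was called when its p, adjusted by Benjamini-Hochberg over all genes tested, was 0.05 or less. Levels are CPM on TMM factors over all 36 libraries, and levels between genes were divided by the gene length in the table. Totals of 13469262 to 28288923 counts per library set the precision, and intervals from counts alone would cover counting error only. The test was also run on simulated counts, with an outcome that is not given here.

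Named were Slc2a1, Hk2, Pfkfb3, Gapdh, Ldha, Slc16a3 and Hif1a in each LPS and CCM comparison, up to 8 called members in each direction by size of change, and up to 3 called genes in each direction of the other lists, except that 1 gene of these lists is not reported here. Alternatives were DESeq2 1.42.0, RLE, total-count and upper-quartile scaling, no filter, 1 fit of all libraries, the replicate block and leaving out libraries. Deviations of same-numbered libraries correlated at 0.323 to 0.893 (KO, LPS and vehicle), 0.380 to 0.923 (KO, CCM and vehicle) and 0.192 to 0.417 (WT, LPS+CCM and LPS), so the number was taken to pair the libraries there. Differently numbered libraries had median correlations of 0.244, 0.314 and -0.169 in that order, so the lowest KO values lay little above them. The KO pairing is thus less certain, and the blocked KO counts rest on it. The pairing comes from these correlations, not from the labels. No libraries agreed within sampling noise. Sequences are from RefSeq (GRCm38.p6), with 35 of 36 members matched by symbol.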

Additional observations from a re-analysis of the deposited data

Results flagged for a closer look

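For 17 of the genes each KO group of 6 was tested for a single library far from the rest (Dixon's ratio at its 95% critical value, which chance passes in about 1 of 20 groups). Of 68 groups tested, 29 passed, and all 29 were KO replicate 6. They come from libraries of that replicate number and are not independent of each other. Dixon's ratio was not computed for all genes. KO replicate 6 stood apart over all genes too, being highest in all 4 KO treatments for 25.5% of 12572 genes and lowest for 28.1%. With vehicle its levels were 701 CPM for Gpi1, 30.5 CPM for Hif1a, 1197 CPM for Ldha, 114 CPM for Pfkl, 220.5 CPM for Pgam1, 3792 CPM for Pkm and 551 CPM for Tpi1. With CCM they were 15.8 CPM for Gapdh, 697 CPM for Gpi1, 40.6 CPM for Hif1a, 67.0 CPM for Hk1, 34.6 CPM for Hk2, 1179 CPM for Ldha, 25.6 CPM for Pfkfb3, 163 CPM for Pfkl, 154 CPM for Pgam1, 4052 CPM for Pkm, 94.9 CPM for Slc16a3 and 568 CPM for Tpi1. With LPS they were 19.2 CPM for Gapdh, 623 CPM for Gpi1, 126 CPM for Hif1a, 107 CPM for Hk1, 91.5 CPM for Hk2, 1709 CPM for Ldha, 239 CPM for Pgam1, 3340.0 CPM for Pkm and 685 CPM for Tpi1. With LPS and CCM, Pfkl was at 363 CPM.

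In WT cells the effect of CCM differed with and without LPS by a test of that difference for Tpi1 (0.53 on the log2 scale) and for Pdk1 (0.63). The call of Tpi1 was lost in 3 of 3 fits that left out a WT replicate (adjusted p = 0.0748 to 0.357). That of Pdk1 was lost in 2 of 3 (0.129 to 0.423).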

How the results depend on the processing

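The count of called members changed by more than 1.5 times under the following settings, and the cause was not tested. DESeq2 gave 1 in WT CCM against vehicle, 1 in the KO LPS by CCM interaction and 5 in the WT interaction (2 with edgeR). Total counts alone gave 4 in the WT interaction, and no filter on low counts gave 6 there and 3 in WT CCM against vehicle. One fit of all 36 libraries gave 0 in the WT interaction and 0 in WT LPS+CCM against LPS, where the fit shares the spread of the KO libraries. The replicate block gave 1 in WT CCM, 4 in KO CCM, 21 in WT LPS+CCM against LPS, 5 in KO LPS+CCM against LPS, 4 in the WT interaction and 1 in the KO interaction, and moved the other counts by less. Beside these, the block called 1.82% of all genes in WT CCM, 5.8% in KO LPS+CCM against LPS, 3.72% in the WT interaction and 0.555% in the KO interaction. In comparisons other than the 3 named under the methods, the number was not taken to pair the libraries. Among these, same-numbered correlations were 0.084 to 0.204 (WT, LPS and vehicle), 0.035 to 0.518 (WT, CCM and vehicle) and -0.162 to 0.890 (KO, LPS+CCM and LPS). Medians for different numbers were -0.095, -0.115 and -0.053 in that order, and whether these libraries are paired is not known. Chosen after seeing the data, the block without KO replicate 6 gave 7 in KO CCM, 1 in KO LPS+CCM against LPS and 1 in the KO interaction, and leaving out KO replicates 5 and 6 gave 1 in KO LPS+CCM against LPS. The shares of all genes called in these fits are not given here, so the counts cannot be set against a background.

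Leaving out libraries gave 0 to 1 in KO against WT with LPS (1, Gapdh, without WT LPS replicate 1) and 0 to 2 in the WT interaction (0 without WT replicate 2 or 3). With total counts alone the LPS change in WT was -0.13 for Aldoa, -0.13 for Eno1, -0.00412 for Ldha, -0.00120 for Pdk3 and -0.035 for Slc16a1. The block was not run between genotypes, since a KO and a WT mouse of one number are different animals and the labels give no shared litter.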
